A study of Mus musculus with 2 samples.

Results

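Complex I of the respiratory chain was followed through 46 genes, all rows of both count tables whose symbol starts with Nduf, out of 13289 genes listed in both tables. They comprise 7 core subunits, 29 accessory subunits, 8 assembly factors and the 2 genes of the Ndufa4 family. All 46 protein-coding Nduf genes of the GENCODE M21 mouse annotation were among them. The genes were chosen by symbol, not by a measured value. By its title the series concerns metabolic reprogramming of alternatively activated macrophages, and the comparison asks how these genes stand when Gata3 is deleted. The study profiled single cells of inflamed mouse tibialis anterior muscle on day 4 after an injection of 50 µl of 10 µM cardiotoxin, a snake toxin that kills muscle fibres and draws in myeloid cells. The sort took live CD45+ CD11b+ cells without Ly6G, and 8000 cells per genotype were loaded for 10x 3' (v3) libraries. The Wt library came from C57BL/6 mice. The Gata3KO library came from C57BL/6:Cx3cr1CRExGata3fl/fl mice, in which Cre driven by the Cx3cr1 gene removes a loxP-flanked part of Gata3, so that deletion is limited to cells that make, or descend from cells that made, Cre. Both genotypes were injured and sorted alike. The number of mice behind each library is not given in the sources used here, and an uninjured library was not analysed here.

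Complex I passes electrons from NADH to ubiquinone and pumps protons across the inner mitochondrial membrane. Its catalytic core is built from subunits encoded in the nucleus and in the mitochondrial genome. Accessory subunits surround that core, and assembly factors join the pieces without staying in the finished complex. In macrophages, reliance on respiration differs between activation states, and complex I is known as a source of reactive oxygen species.

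The Wt library held 3290 barcodes and 15392330 UMIs (unique molecular identifiers, 1 per captured transcript), with a median of 2616 UMIs and 15.7% mitochondrial UMIs per barcode. The Gata3KO library held 3434 barcodes and 19422237 UMIs, with medians of 3059 UMIs and 21.8%. The limit of 10% mitochondrial UMIs, with minimums of 500 UMIs and 200 genes, left 990 Wt barcodes (30.1%) and 650 Gata3KO barcodes (18.9%). The libraries shared 2 barcodes, of which 0 were kept in both. Joint clustering without the Nduf genes gave 8 clusters, of which 1, 2 and 3 scored as monocytes or macrophages and were pooled (406 Wt and 407 Gata3KO cells). In that class Ptprc (CD45) stood at 840 CPM (counts per 1000000) in Wt and 593 CPM in Gata3KO, Itgam (CD11b) at 187 and 196 CPM, and the macrophage gene Cd68 at 1180 and 1581 CPM. Gata3 had 1 UMI in each library there, so the deletion could not be checked.

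The class differed between libraries in depth and makeup. Its median was 8841 UMIs per cell in Wt and 16874 in Gata3KO. Summed markers of lipid-handling macrophages (12 genes) were at 42440 CPM in Wt and 56149 CPM in Gata3KO. Summed interferon-responding markers (9 genes) were at 3733 and 589 CPM, and monocyte markers (10 genes) at 3000.2 and 1384 CPM. Skeletal muscle markers (7 genes) were at 155 and 55.5 CPM. Each genotype has a single library, so differences between genotypes have no test and no replicate check. Every interval given is a 95% interval for counting error only.

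In monocytes and macrophages the complex I genes were slightly higher in the Gata3KO library as a group. Their summed level was 6032 CPM in Wt (5960 to 6106, exact Poisson interval, 26428 UMIs) and 6612 CPM in Gata3KO (6552 to 6673, 45889 UMIs). The ratio was 1.10-fold, or 0.13 on the log2 scale (0.11 to 0.15, exact conditional binomial interval). Of the 46 genes, 40 reached a mean of 20 CPM over both libraries. Of these 40, 31 were higher and 9 lower in Gata3KO, while 56.2% of the 5586 genes that passed the same filter were higher. Their median log2 ratio was 0.13, beside 0.04 over all 5586 genes. Past 1.2-fold, 9 were higher, beside 21.4% of all genes, a share near the background. Past 1.2-fold lower there were 0, beside 17.6% of all genes. Past 1.5-fold there were 0 in either direction, beside 4.24% higher and 6.52% lower of all genes. Counting intervals lay above 0 for 20 of the 40, beside 26.1% of all genes, and below 0 for 1, beside 19.6%. They held 0 for 19. Depth per cell moved with this difference: within cells of 10000 to 20000 UMIs the summed ratio was 0.03 on the log2 scale (-0.00 to 0.07).

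**Figure D1:**
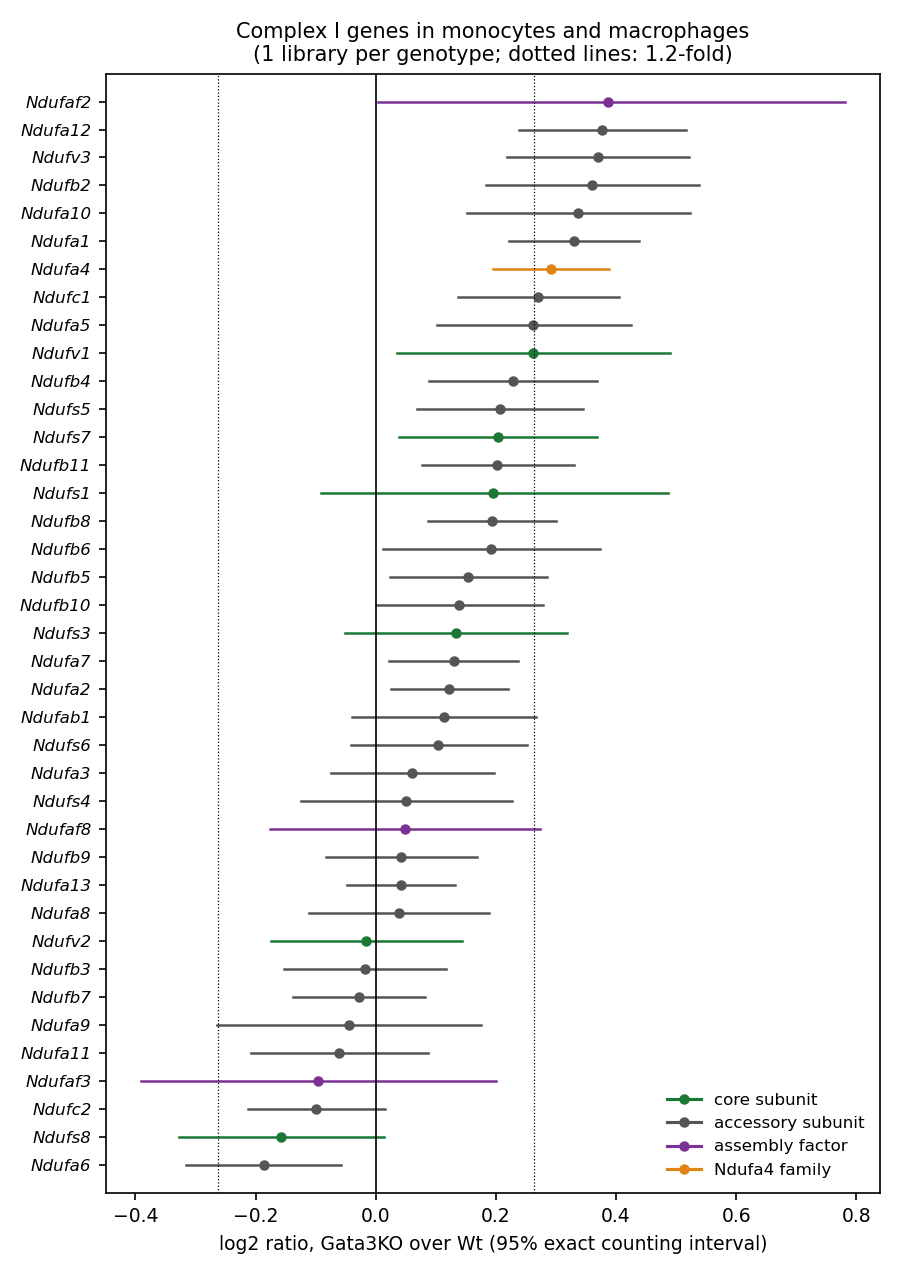
Log2 ratio of Gata3KO over Wt in monocytes and macrophages for 39 of the complex I genes that reached 20 CPM, coloured by role. Points are ratios of CPM from summed UMIs and bars are 95% exact counting intervals (1 library per genotype); 30 points lie above 0 and 9 below, the lowest being Ndufa6 at -0.19.

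The core subunits carry the flavin and the iron-sulfur clusters along which electrons travel. Those encoded in the nucleus had levels between 38.2 CPM (Ndufs1) and 122 CPM (Ndufv2) as means of both libraries. Since a 3' library counts 1 tag per transcript whatever its length, these levels were not divided by length. Ndufv1, which holds the flavin that accepts electrons from NADH (chromosome 19, 4007384 to 4012806, minus strand), stood at 56.2 CPM in Wt and 67.3 CPM in Gata3KO, a log2 ratio of 0.26 (0.04 to 0.49). Ndufs7, an iron-sulfur subunit next to the ubiquinone pocket, stood at 107 and 123 CPM, a ratio of 0.20 (0.04 to 0.37). For both genes the Gata3KO library was the higher beyond counting error.

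Other core subunits had intervals that held 0. Ndufs1, the large iron-sulfur subunit of the NADH arm, was at 35.6 CPM in Wt and 40.8 CPM in Gata3KO (log2 ratio 0.20, -0.09 to 0.49). Ndufs3, which joins the NADH and ubiquinone modules, was at 87.6 and 96.1 CPM (0.13, -0.05 to 0.32). Ndufv2, the iron-sulfur partner of Ndufv1, was at 122 and 121 CPM (-0.02, -0.17 to 0.14). Ndufs8, an iron-sulfur subunit beside Ndufs7 (chromosome 19, 3908863 to 3912774, minus strand), was at 110 CPM in Wt and 98.3 CPM in Gata3KO (-0.16, -0.33 to 0.01). Ndufs7 and Ndufs8, which lie side by side in the complex, thus had ratios of opposite sign, although the interval of Ndufs8 held 0.

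Accessory subunits made up most of the complex I signal, at 4947 CPM in Wt and 5397 CPM in Gata3KO (log2 ratio 0.13, 0.10 to 0.15). All 29 reached 20 CPM, and 23 were higher and 6 lower in Gata3KO, beside 56.2% of all genes higher. Past 1.2-fold higher there were 6, beside 21.4% of all genes, a share near the background. Ndufa12 (chromosome 10, 94198720 to 94221443, plus strand) had the largest accessory ratio, with 144 CPM in Wt and 187 CPM in Gata3KO (0.38, 0.24 to 0.52). Ndufv3 of the NADH arm (chromosome 17, 31520115 to 31531331, plus strand) followed with 121 and 157 CPM (0.37, 0.22 to 0.52). Ndufb2 of the membrane arm (chromosome 6, 39592574 to 39603382, plus strand) was at 89.7 and 115 CPM (0.36, 0.18 to 0.54). Ndufa10, a membrane-arm subunit related to nucleoside kinases (chromosome 1, 92439010 to 92473860, minus strand), was at 81.9 and 103 CPM (0.34, 0.15 to 0.52). Ndufb2 overlaps a second annotated gene on its strand, as do Ndufa10, Ndufa13, Ndufb8, Ndufb9 and Ndufc2, so reads there could have been counted for either or for neither.

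Genes at the other end were lower by less. Ndufa6, a small matrix-facing subunit that binds the acyl carrier protein Ndufab1 (chromosome 15, 82350140 to 82354322, minus strand), was at 193 CPM in Wt and 169 CPM in Gata3KO. Its log2 ratio of -0.19 (-0.32 to -0.06) was the only one of the 40 whose interval lay below 0. Its partner Ndufab1 was at 127 and 137 CPM (0.11, -0.04 to 0.27). Ndufc2 of the membrane arm was at 243 and 227 CPM (-0.10, -0.21 to 0.01), and Ndufa11, a membrane-arm subunit, at 143 and 137 CPM (-0.06, -0.21 to 0.09). Among the most abundant subunits the ratios varied. Ndufa13 was at 371 and 382 CPM (0.04, -0.05 to 0.13), and Ndufa2 at 311 and 339 CPM (0.12, 0.03 to 0.22). Ndufb8 was at 252 and 289 CPM (0.19, 0.09 to 0.30), and Ndufa1 at 239 and 301 CPM (0.33, 0.22 to 0.44).

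By symbol series, the summed ratios were alike. The 12 Ndufa subunits together had a log2 ratio of 0.12 (0.08 to 0.16), the 10 Ndufb subunits 0.13 (0.09 to 0.17), the 8 Ndufs subunits 0.13 (0.07 to 0.19) and the 3 Ndufv subunits 0.20 (0.11 to 0.30). The 2 Ndufc subunits stood at 0.06 (-0.03 to 0.14), with Ndufc1 at 0.27 and Ndufc2 at -0.10. Each of these intervals overlapped all the others.

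Assembly factors were scarce transcripts, together 165 CPM in Wt and 177 CPM in Gata3KO (0.10, -0.03 to 0.24). Of the 8, 3 reached 20 CPM. Ndufaf2, a relative of Ndufa12 that occupies its place during assembly (chromosome 13, 108002715 to 108158623, minus strand), was at 19.2 and 25.1 CPM. Its log2 ratio of 0.39 was the largest of the 40, but it rested on 84 and 174 UMIs and its interval ran from 0.00 to 0.78. Ndufaf8 was at 60.5 and 62.5 CPM (0.05, -0.18 to 0.27) and Ndufaf3 at 37.0 and 34.6 CPM (-0.10, -0.39 to 0.20). Ndufaf5 (3.65 and 5.48 CPM), Ndufaf7 (10.3 and 13.4 CPM), Ndufaf4 (15.7 and 18.0 CPM), Ndufaf6 (8.67 and 9.08 CPM) and Ndufaf1 (10.0 and 8.93 CPM) did not reach 20 CPM, and the interval of each ratio held 0. Differences of the size seen among the subunits were not detectable at this depth for these 5 genes.

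Ndufa4, named as a complex I gene but now placed with cytochrome c oxidase (chromosome 6, 11900292 to 11907497, minus strand), was the second most abundant gene of the set. It stood at 301 CPM in Wt and 369 CPM in Gata3KO, a log2 ratio of 0.29 (0.19 to 0.39). Its relative Ndufa4l2, known as a hypoxia-induced gene, had 2 UMIs in Wt and 0 in Gata3KO. A count of 0 allows up to 3 UMIs, so no fold was computed for it.

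Promoters were searched for the short sequences recognised by factors that are known regulators of respiratory genes, on both strands, in RefSeq windows of 250 bases before to 50 after each start (build GRCm38.p6). A window was listed for 40 of the 46 genes. The letters CGCNTGCGC, from the site of Nrf1, were in 10 of the 40 (25%) and in 6.47% of all 27025 promoters. The letters AAGATGGC, recognised by Yy1, were in 8 (20%) and in 2.88% of all promoters. The Sp1 letters GGGCGG were in 21 (52.5%) against 35.9%. The ETS-family letters CCGGAAG were in 6 (15%) against 9.12%, and those of Gata factors (AGATAA) were in 2 (5%, Ndufa12 and Ndufc2) against 11.4%. TCAAGGTCA, recognised by Esrra, was in 0, against 0.407%. A match is a description of these letters and shows no binding. The 10 genes with the Nrf1 letters spanned log2 ratios from -0.19 to 0.58, and the 8 of them that reached 20 CPM from -0.19 to 0.26. Genes with the Yy1 letters ran from -0.05 to 0.27, so neither set lay on 1 side of 0. Those with Sp1 letters spanned -0.19 to 0.39.

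Stretches upstream of the start are shown for 3 genes because they belong to genes at different places in the order of ratios. The first is from Ndufv3 (log2 ratio 0.37; chr17:31519865-31520114, plus strand), with its Sp1 letters in capitals. The others are from Ndufs5 (0.21; chr4:123718203-123718436, minus strand) and Ndufa11 (-0.06; chr17:56717512-56717761, plus strand), with the Nrf1 letters in capitals. All are from RefSeq, GRCm38.p6, written from 5′ to 3′ on the strand of the gene and ended before the annotated transcript.
Ndufv3: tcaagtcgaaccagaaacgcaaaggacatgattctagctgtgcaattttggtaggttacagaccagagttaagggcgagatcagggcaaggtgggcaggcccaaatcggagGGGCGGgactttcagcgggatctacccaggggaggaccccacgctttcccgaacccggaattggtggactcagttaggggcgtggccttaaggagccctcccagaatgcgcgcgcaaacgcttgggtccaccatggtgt
Ndufs5: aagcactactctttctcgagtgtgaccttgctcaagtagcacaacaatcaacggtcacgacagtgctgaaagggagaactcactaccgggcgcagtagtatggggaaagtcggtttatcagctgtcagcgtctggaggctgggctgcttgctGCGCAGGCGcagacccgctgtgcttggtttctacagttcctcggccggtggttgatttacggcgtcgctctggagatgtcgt
Ndufa11: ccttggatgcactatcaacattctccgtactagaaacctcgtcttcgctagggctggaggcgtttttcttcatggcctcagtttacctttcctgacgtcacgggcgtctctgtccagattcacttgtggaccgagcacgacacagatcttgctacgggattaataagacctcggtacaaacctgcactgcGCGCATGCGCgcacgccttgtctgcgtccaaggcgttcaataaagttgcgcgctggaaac

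Across clusters 0 to 6 the levels of complex I genes differed more between cell states than between genotypes. Among these, cluster 4, led by cycling and collagen genes, and cluster 1, led by Gpnmb and Fabp5, were highest in both libraries. Cluster 4 held 7634 CPM in Wt (7492 to 7778) and 7097 CPM in Gata3KO (6971 to 7224), and cluster 1 held 6931 CPM (6804 to 7059) and 7318 CPM (7229 to 7407). Their order was therefore not the same in the 2 libraries. Cluster 2, led by Ccr2 and interferon genes, held 5464 and 5925 CPM. Cluster 3, led by Cxcl2, Arg1 and Gdf15, held 5551 and 5861 CPM, and cluster 5, the Cd209a dendritic cells, 5366 and 5158 CPM. In Wt the intervals of these 3 overlapped. In Gata3KO those of clusters 2 and 3 overlapped, and cluster 5 was lower. Mature dendritic cells of cluster 6 held 3289 and 3740 CPM. The low-UMI cluster 0 held 2257 and 2109 CPM. The skeletal muscle cells of cluster 7 held 6180.4 CPM in Wt (29 cells, 5850 to 6525) and 12172 CPM in Gata3KO (3 cells, 11531 to 12839), above every other cluster of the latter library.

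**Figure D2:**
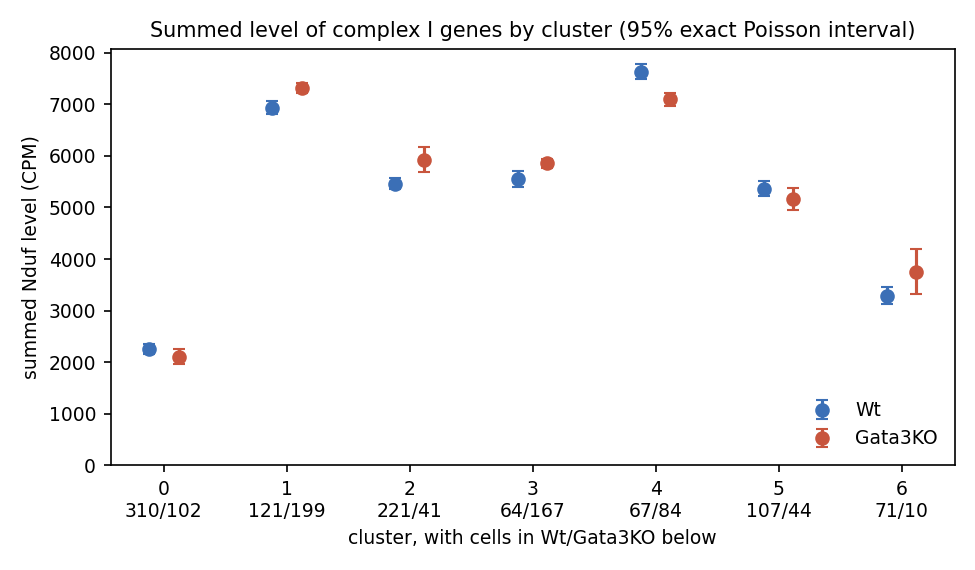
Summed level of the complex I genes (CPM, vertical axis from 0) in clusters 0 to 6 for Wt and Gata3KO, with 95% exact Poisson intervals and the number of cells of each library under the axis. The pairs of points of a cluster lie close together, while clusters range from 2109 to 7634 CPM.

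Most single genes followed this order over clusters 0 to 6. Of the 40 genes, 32 were highest in cluster 4 in Wt and 4 in cluster 1, while 33 were lowest in cluster 0 and 6 in cluster 6. In Gata3KO, 23 were highest in cluster 1 and 10 in cluster 4, while 31 were lowest in cluster 0 and 9 in cluster 6, which held 10 cells there. Ndufa4 ran from 83.9 CPM in cluster 0 to 474 CPM in cluster 4 in Wt, and from 41.3 to 437 CPM (cluster 1) in Gata3KO. Ndufa6 went another way among the larger clusters: its level in the Cd209a dendritic cells, 344 CPM in Wt and 407 CPM in Gata3KO, was above that in cluster 1, 170 and 177 CPM. Per cell, the median share of UMIs from complex I genes was 0.649% in Wt and 0.720% in Gata3KO in cluster 1, 0.512% and 0.555% in cluster 3, and 0.202% and 0.204% in cluster 0.

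Within each cluster of the class, taken whole, the genotype difference kept its sign and was smaller than over the class. In cluster 1 (121 Wt and 199 Gata3KO cells) 32 of 40 genes were higher in Gata3KO, beside 54.2% of all genes, and the summed log2 ratio was 0.08 (0.05 to 0.11). Ndufa10, Ndufb2 and Ndufb4 were the 3 genes whose interval lay above 0 there, beside 13.9% of all genes. In cluster 2 (221 and 41 cells) 25 of 39 were higher, beside 52.2%, and the summed ratio was 0.12 (0.05 to 0.18). Ndufb6 had the largest ratio there among genes of at least 20 CPM, with an interval that held 0 (0.55, -0.09 to 1.14). Ndufa4, next in order, was at 216 CPM in Wt and 308 CPM in Gata3KO (0.51, 0.21 to 0.81). In cluster 3 (64 and 167 cells) 26 of 40 were higher, beside 53.6%, and the summed ratio was 0.08 (0.03 to 0.12). Split more finely, its part led by Cxcl2, Arg1 and Gdf15 (30 and 156 cells) had a ratio of 0.00 (-0.05 to 0.06). Its part led by Hp and Vcan, which scored as monocytes (32 and 5 cells), had -0.09 (-0.27 to 0.09). Neither part held the ratio of the whole cluster, and the role of its makeup was not tested. The finer parts of clusters 1 and 2 had ratios from 0.05 to 0.17, apart from a low-UMI part of cluster 1 at 0.96 (0.34 to 1.65). That part held 4 Wt and 15 Gata3KO cells, with 24 and 157 complex I UMIs. With cluster shares held equal, the summed ratio of the class was 0.09, against 0.13 as pooled.

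Among genes of at least 20 CPM, cluster 3 held the largest single-gene ratios of clusters 1 to 3, in opposite directions. Ndufv3 was at 102 CPM in Wt and 164 CPM in Gata3KO, a log2 ratio of 0.69 (0.37 to 1.03). Ndufs8 was at 134 CPM in Wt and 82.6 CPM in Gata3KO, a ratio of -0.70 (-1.02 to -0.37). They were the 2 genes of at least 50 CPM past 1.5-fold there, 1 higher and 1 lower, beside 10.1% of all genes in each direction. In cluster 1 the same genes were at 138 and 154 CPM (Ndufv3, 0.15, -0.07 to 0.38) and at 98.6 and 111 CPM (Ndufs8, 0.17, -0.10 to 0.44). Ndufs8 was thus lower in Gata3KO in cluster 3 and not in cluster 1, and this difference between clusters was not tested. Ndufs4 (114 and 87.3 CPM) and Ndufb7 (238 and 198 CPM) also had intervals below 0 in cluster 3, which makes 3 genes, beside 16% of all genes.

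Outside the class the summed ratio was below 0 in clusters 4, 5 and 0, and above 0 in clusters 6 and 7. In cluster 4 (67 and 84 cells), 28 of 41 genes were lower in Gata3KO, beside 52% of all genes, and the summed ratio was -0.11 (-0.14 to -0.07). Ndufv1 was at 105 CPM in Wt and 68.3 CPM in Gata3KO there (-0.61, -0.97 to -0.26), the 1 gene of at least 50 CPM past 1.5-fold, beside 11.6% of all genes lower and 9.52% higher. Intervals lay below 0 for 11 genes, among them Ndufc2, Ndufb6, Ndufa6 and Ndufa12, beside 17.5% of all genes, and above 0 for 0, beside 15.8%. Cluster 4 scored best as cycling cells, was led by collagen genes and so stayed unnamed. Split more finely, its subcluster led by collagen genes still scored best as cycling cells (34 and 22 cells). It was at 7718 and 6822 CPM (-0.18, -0.23 to -0.12). A subcluster led by Pgf, Dab2 and Mmp9, 83.2% of which lay in cluster 4 (33 and 80 cells), scored as tissue-resident macrophages. Its level was 7505 and 7119 CPM (-0.08, -0.13 to -0.02). Cluster 4 thus held cells that scored as macrophages, outside the class, with a ratio of the opposite sign. The makeup of cluster 4 moves with this result, and its part was not tested.

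In the Cd209a dendritic cells of cluster 5 (107 and 44 cells) 25 of 40 genes were lower in Gata3KO, beside 54.4%, with a summed ratio of -0.06 (-0.13 to 0.01). In cluster 0 (310 and 102 cells) 20 of 37 were lower, beside 44%, with a summed ratio of -0.10 (-0.22 to 0.02). Ndufa4 was at 83.9 and 41.3 CPM in cluster 0 (-1.02, -1.93 to -0.20). Among the other genes of at least 50 CPM past 1.5-fold lower there were Ndufa3, Ndufa6, Ndufb3 and Ndufb10, with 12.1% of all genes past that fold. Each of these 4 rested on 22 or fewer Gata3KO UMIs and had an interval that held 0. The summed ratio was 0.19 (0.00 to 0.36) in cluster 6 and 0.98 (0.87 to 1.09) in cluster 7. These clusters held 10 and 3 Gata3KO cells, and their ratios were not read gene by gene. With clusters 5 and 6 pooled as dendritic cells (178 and 54 cells) the summed ratio was 0.10 (0.03 to 0.16), above 0 although that of cluster 5 alone was below 0, and cluster 6 held 71 of the Wt and 10 of the Gata3KO dendritic cells.

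Complex I levels followed the number of UMIs per cell. In Wt monocytes and macrophages the summed level was 4074 CPM in cells under 5000 UMIs, 5261 CPM at 5000 to 10000, 6095 CPM at 10000 to 20000 and 7008 CPM from 20000 up. In Gata3KO it was 5684, 5775, 6231 and 6924 CPM. CPM already divides by the total of each group of cells, so deeper cells held a larger share of complex I transcripts. From 5000 to 10000 UMIs up to over 20000, 37 of 40 genes were higher in the deep cells of Wt, beside 50.4% of all 5586 genes, and 34 of 40 in Gata3KO, beside 49.4%. Past 1.2-fold there were 28 in Wt, beside 32.9%, and 21 in Gata3KO, beside 31.3%. The median log2 ratio of deep over shallow cells was 0.44 in Wt and 0.28 in Gata3KO, against 0.01 and -0.01 over all genes.

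Single genes differed in how steeply they followed depth. Ndufb6 went from 50.3 to 133 CPM in Wt and from 56.4 to 114 CPM in Gata3KO. Ndufb8 went from 182 to 349 CPM and from 157 to 320.1 CPM. Ndufa12 went from 97.7 to 219 CPM and from 143 to 204 CPM, and Ndufa4 from 196 to 398 CPM and from 276 to 394 CPM. By contrast Ndufv3 stayed near its level, at 135 and 141 CPM in Wt and 154 and 157 CPM in Gata3KO. Ndufa6 went down in Wt, from 214 to 156 CPM, and was at 152 and 160.2 CPM in Gata3KO.

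**Figure D3:**
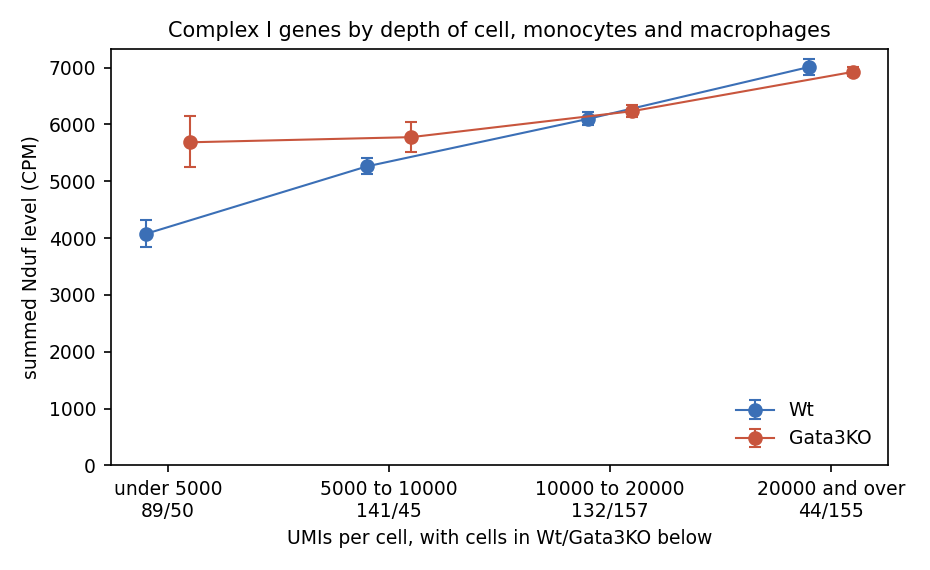
Summed level of the complex I genes (CPM, vertical axis from 0) in monocytes and macrophages grouped by UMIs per cell, for Wt and Gata3KO, with 95% exact Poisson intervals and cell numbers under the axis. Both lines climb with depth, and the libraries part only in cells under 10000 UMIs.

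At matched depth the genotype difference of the sum depended on the depth. It was larger than over the class in the shallowest cells, about as large at 5000 to 10000 UMIs and smaller in the deeper cells. The log2 ratio was 0.48 (0.34 to 0.62) in cells under 5000 UMIs, where the Gata3KO cells gave 620 complex I UMIs, and 0.13 (0.06 to 0.21) at 5000 to 10000. It was 0.03 (-0.00 to 0.07) at 10000 to 20000 and -0.02 (-0.05 to 0.02) from 20000 up. At 10000 to 20000 UMIs, with 132 Wt and 157 Gata3KO cells, 23 of 40 genes were higher in Gata3KO, beside 57.1% of all genes, and 5 were past 1.2-fold higher, beside 25.1%. From 20000 up, 18 of 40 were higher, beside 51.1%. Thinning each cell to 2000 UMIs, which equalises the sampling but not the kind of cell, gave a summed ratio of 0.18. Per thinned cell the mean was 11.2 complex I UMIs of 2000 in Wt (383 cells) and 12.8 in Gata3KO (378 cells).

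**Figure D4:**
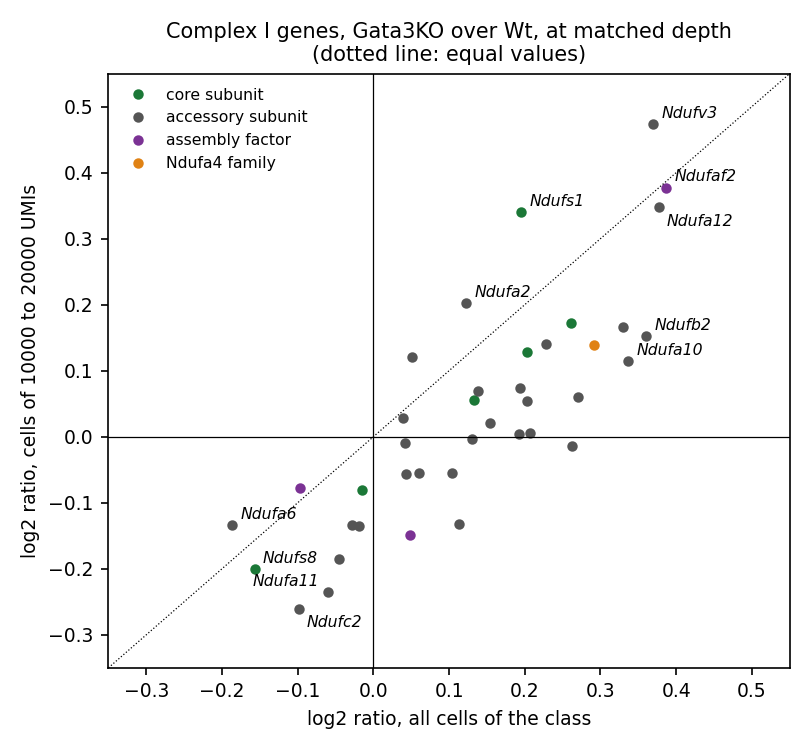
Log2 ratio of Gata3KO over Wt for 39 complex I genes in all monocytes and macrophages (horizontal axis) and in those of 10000 to 20000 UMIs (vertical axis), coloured by role, with the dotted line at equal values. Most points lie below the line, and Ndufv3, Ndufs1 and Ndufa2 are among those above it.

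At matched depth some intervals still lay clear of 0, but not more often than over all genes. At 10000 to 20000 UMIs the intervals of 4 of 40 genes lay above 0, beside 16.7% of all genes. Ndufv3 in cells of 10000 to 20000 UMIs was at 113 CPM in Wt and 156 CPM in Gata3KO, a log2 ratio of 0.47 (0.22 to 0.73). Ndufa12 was at 131 and 166 CPM (0.35, 0.11 to 0.59) and Ndufa2 at 299 and 343 CPM (0.20, 0.04 to 0.36). Ndufc2 was at 268 and 223 CPM (-0.26, -0.44 to -0.08), the 1 gene whose interval lay below 0, beside 12.2% of all genes. From 20000 UMIs up, Ndufa1, Ndufa10 and Ndufb2 had intervals above 0, beside 12% of all genes, and Ndufs4, Ndufs8 and Ndufa8 below, beside 12.6%. Ndufv3 was at 141 and 157 CPM there (0.16, -0.09 to 0.40), so its difference was within counting error in the deepest cells.

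The other listed genes of the chain in monocytes and macrophages were mostly higher in Gata3KO. Ratios were small for the nuclear genes and larger in the median for the mitochondrially encoded subunits of complex I. Mitochondrially encoded genes outside complex I were not listed, so nothing is said about them. Among the 7 mitochondrially encoded complex I subunits, 6 were higher and 1 lower, with a median log2 ratio of 0.35. The range ran from mt-Nd3 (680 and 1008 CPM, 0.57) and mt-Nd2 (1688 and 2171 CPM, 0.36) to mt-Nd5 (428 and 469 CPM, 0.13) and mt-Nd6 (31.3 and 24.2 CPM, -0.37). Of the 7, 5 were past 1.2-fold higher, beside 21.4% of all genes. Their share of UMIs was higher in Gata3KO in each depth group. It was 0.654% in Wt and 0.861% in Gata3KO at 10000 to 20000 UMIs, and 0.746% and 0.927% from 20000 up. Mitochondrial UMIs also decided which barcodes were kept, so these values cover a restricted range. Complex II, which feeds electrons from succinate, had 3 of 4 higher, from Sdhc at -0.07 to Sdhd at 0.43. Complex III had 9 of 9 higher, from Uqcrh at 0.03 to Uqcr11 at 0.32, with a median of 0.13. Complex IV had 9 of 10 higher, from Cox5a at -0.09 to Cox6a1 at 0.34, with a median of 0.16. ATP synthase had 12 of 14 higher, from Atp5d at -0.04 to Atp5c1 at 0.30, with a median of 0.16. Over all genes 56.2% were higher.

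Factors outside the chain lay on both sides of 0. Of the 10 other complex I assembly factors in both tables, 3 reached 20 CPM: Dmac1 at 68.0 and 76.4 CPM (0.17), Tmem126b at 24.9 and 24.6 CPM (-0.01) and Dmac2 at 29.9 and 21.3 CPM (-0.49, -0.84 to -0.14). Under 20 CPM, Tmem70 was at 16.4 and 23.3 CPM (0.51, 0.10 to 0.93) and Foxred1 at 16.7 and 10.8 CPM (-0.62, -1.11 to -0.14). The intervals of the other assembly factors under 20 CPM held 0. Of the regulators of mitochondrial genes, 4 reached 20 CPM and 3 of these were lower in Gata3KO, beside 43.8% of all genes. Esrra was at 31.0 and 20.9 CPM (-0.57, -0.92 to -0.22), Nrf1 at 26.7 and 20.2 CPM (-0.40, -0.77 to -0.04) and Tfam at 23.1 and 20.9 CPM (-0.14, -0.52 to 0.24), while Yy1 was at 108 and 122 CPM (0.17, 0.00 to 0.33). Dnajc15, an inner-membrane protein known to restrain complex I, was at 127 and 122 CPM (-0.06, -0.21 to 0.10). Below 20 CPM, Gabpa was at 12.3 and 21.04 CPM (0.77, 0.31 to 1.25), the largest ratio of the regulators, and Ppargc1b at 7.53 and 5.04 CPM (-0.58, -1.31 to 0.15). The regulators thus lay on both sides of 0, with intervals below 0 for Esrra and Nrf1 and above 0 for Gabpa and Yy1.

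Barcodes above the 10% mitochondrial limit went the other way. Over every deposited barcode, and as CPM of UMIs outside the mitochondrial genome, the summed complex I level was 5288 in Wt and 5326 in Gata3KO (log2 ratio 0.01, -0.00 to 0.02), and 22 of 40 genes were higher, beside 59.7% of all genes. Below 2.5% mitochondrial UMIs the ratio was 0.18 (0.13 to 0.23), at 2.5 to 5% it was 0.11 (0.09 to 0.14) and at 5 to 10% it was 0.20 (0.18 to 0.23). At 10 to 20% it was -0.19 (-0.23 to -0.16), at 20 to 40% -0.32 (-0.37 to -0.28) and above 40% -0.40 (-0.51 to -0.28). Above 10% as a whole, 35 of 39 genes were lower in Gata3KO, beside 43.2% of all genes, and 21 were past 1.2-fold lower, beside 19.7%. Ndufa4 was at 197 and 113 CPM there (-0.81, -0.94 to -0.68) and Ndufa6 at 133 and 78.0 CPM (-0.77, -0.93 to -0.61). Ndufv3, at 114 and 120 CPM (0.07, -0.08 to 0.22), was among the 4 genes that were higher, with Ndufa10, Ndufs1 and Ndufaf4.

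**Figure D5:**
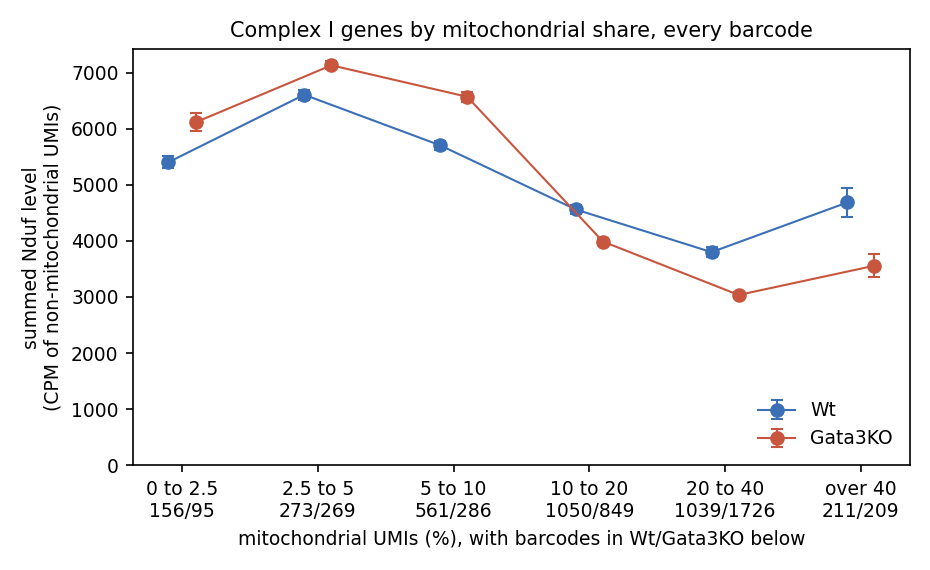
Summed level of the complex I genes (CPM of UMIs outside the mitochondrial genome, vertical axis from 0) over every deposited barcode grouped by mitochondrial share, for Wt and Gata3KO, with 95% exact Poisson intervals and barcode numbers under the axis. The Gata3KO points are the higher below 10% and the lower above it.

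The makeup of these barcodes differed between libraries. Levels over reclustered barcodes are again CPM of UMIs outside the mitochondrial genome. When every barcode was reclustered without the Nduf genes, 11 clusters resulted, and 1381 Gata3KO against 336 Wt barcodes fell in a low-UMI cluster led by Cxcl2, Ifrd1 and Gdf15, with 2787 CPM in Wt and 2698 CPM in Gata3KO (-0.05, -0.12 to 0.02). Another low-UMI cluster, led by interferon genes, held 1373 Wt and 287 Gata3KO barcodes, with 3379 and 3358 CPM (-0.01, -0.08 to 0.06). A further one held 111 Wt and 795 Gata3KO barcodes, with 2866 and 3014 CPM (0.07, -0.05 to 0.19). Within each of these 3 clusters the interval of the genotype ratio held 0. In the lipid-handling macrophage cluster of that grouping (526 and 536 barcodes) the level was 6495 CPM in Wt and 6980.4 CPM in Gata3KO (0.10, 0.08 to 0.12). A cluster that scored as monocytes but was led by Plac8, Cd209a and Ifitm6 (292 and 105 barcodes) was at 5484 and 5426 CPM (-0.02, -0.06 to 0.03). Both clusters were pooled as monocytes and macrophages, with a ratio of 0.15 (0.13 to 0.16), above that of either cluster. Monocytes and macrophages above 10% mitochondrial UMIs were at 5684 and 5984 CPM (0.07, 0.03 to 0.12), while all other barcodes above 10% were at 3774 and 3077 CPM (-0.29, -0.33 to -0.26). All other barcodes of at most 10% were at 5342 and 6209 CPM (0.22, 0.18 to 0.26), so outside this class the sign turned at the 10% limit.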

How the data were processed

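Whole-number UMI counts per gene and barcode were deposited by the authors, 1 table per library, not normalized. The tools named per the submitters' processing notes are Seurat 3.0.2 under R 3.6.1 and Cell Ranger 3.0.1, with build mm10; any filter on cells is not given in the sources used here. Genes and lists were chosen with earlier results of these data known.

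Barcodes with at least 500 UMIs, 200 genes and at most 10% mitochondrial UMIs were scaled to 10000 per cell, log-transformed and clustered jointly without integration on 2000 variable genes (Nduf genes left out), 30 principal components, 15 neighbours and Leiden resolution 0.6 (scanpy 1.11.5, scikit-learn 1.9.0, leidenalg 0.10.2, igraph 0.11.9). A cluster took the class of its best marker list (score of at least 0.15); cycling cells stayed unnamed. Scrublet called 0 of 990 Wt and 4 of 650 Gata3KO cells as doublets, so it cannot be taken as having found them; none was removed. In clusters 2 and 3 no marker of the best list was among the 10 leading genes.

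Counts were summed per library and cluster or class and given as CPM. Ratios have exact conditional binomial intervals and levels exact Poisson intervals (95%, scipy 1.17.1). These cover counting error only, and UMIs lower but do not remove the effect of amplification. Medians and counts of genes used a mean of at least 20 CPM and 1 CPM added before the log. Simulated libraries of 5752 genes were drawn as Poisson counts from the pooled profile of every barcode. In these, 95.8% of intervals covered the true ratio. The interval lay on the right side of 0 for 39 of 67 genes changed 1.2-fold, 64 of 67 changed 1.5-fold and 66 of 66 changed 2-fold. Poisson draws are what the intervals assume, so coverage here checks the calculation only. Variation between cells or libraries was not simulated.

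Genes were named by rule: the 7 nuclear core subunits, the 5 largest ratios each way, the 3 highest and 3 lowest levels, all assembly factors, the Ndufa4 family, members of at least 50 CPM past 1.5-fold in clusters with 50 cells of each library, and up to 2 at each end of each pathway list. Genes named beyond it, and those named for depth, mitochondrial share or an interval clear of 0, were chosen after their values were seen. Bins of depth and of mitochondrial share, finer clusters and clusters of every barcode were added after the data were seen. Alternatives changed the barcodes, clustering, scaling, weighting, depth, filter and makeup. Coordinates are from GENCODE M21 (mm10). The values of 1 gene are not reported here and it is not drawn; counts, sums and medians include it.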

Additional observations from a re-analysis of the deposited data

How the results depend on the processing

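In monocytes and macrophages the summed ratio, the median ratio and the number of genes higher kept their direction under the alternatives other than single depth groups: the log2 ratio of the sum ran from 0.06 to 0.24, the median from 0.06 to 0.26, and the number higher from 24 (of 31, with a mean of at least 100 CPM) to 38. Over depth groups, set after seeing the data, the sum ran from 0.48 under 5000 UMIs to -0.02 from 20000 up, where the median (-0.02) and the number higher (18 of 40) turned too. The summed ratio, 0.13 as reported, moved to 0.2135 at Leiden resolution 0.3, 0.07996 at resolution 1.2, 0.1928 over all kept cells, 0.1834 with cells thinned to 2000 UMIs, 0.0912 with cluster shares held equal, 0.2351 with every cell weighted alike and 0.1676 with every deposited barcode reclustered. At resolution 0.3 the class held 750 Wt and 571 Gata3KO cells, against 406 and 407 as reported, so it was a wider set of cells. At resolution 1.2 it held 334 and 445. The class of the reclustered barcodes also took in a cluster led by Plac8 and Cd209a. Its ratio of 0.1676 is for CPM of all UMIs, and it was 0.15 for CPM of UMIs outside the mitochondrial genome. Among settings chosen after seeing the data the summed ratio was 0.09221 in cells of 5000 to 20000 UMIs and 0.06124 with cluster 4 added. The median moved to 0.2346 at resolution 0.3 and to 0.2568 with cells weighted alike. At resolution 0.3, clusters 1, 3 and 4 merged by construction, and the median, 0.08 in cluster 1 and 0.09 in cluster 3 as reported, reversed to -0.02886. With thinned cells the median of cluster 4 reversed from -0.14 to 0.01124, and that of cluster 1 moved to 0.1459; the cause was not tested. Among the 40 single genes, 21 moved beyond their interval with thinned cells, 14 with cells weighted alike and at most 5 under any other setting. Thinning kept 2000 UMIs from each of 383 Wt and 378 Gata3KO cells, against 4381093 and 6940069 UMIs in the class. Thinned ratios thus carry more counting error than those intervals cover. Other scalings shifted the median of all genes by at most 0.01. Leaving out a replicate was not possible with 1 library per genotype. No paired analysis was possible because each genotype has 1 library and no result comes from a test. Depth limits what can be read for the assembly factors, for clusters 0, 2, 5, 6 and 7 in Gata3KO (299 to 2344 complex I UMIs each) and for cells under 5000 UMIs.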
